A study of Mus musculus with 70 samples.

Results

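The data described here are the RNA levels of 8 genes of the negative limb of the circadian clock in the mouse dorsal hippocampus: Per1, Per2 and Per3, Cry1 and Cry2, Ciart, Bhlhe40 and Bhlhe41. They were taken by symbol from the 24346 genes listed, and all 8 had a mean of at least 1 FPKM (fragments per kilobase of transcript, scaled to the mapped reads of the library), the limit that 12994 genes passed. The family was chosen from small p-values of clock genes in the comparisons with the sedentary group, so the values of those comparisons are given as a description. Calls are counted there only beside the share of all genes called, and nothing is read from them. The same holds for comparisons among the exercise groups, whose libraries were the other arm of that choice.

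In the clock of mammalian cells, the activators BMAL1 (gene Arntl) and CLOCK, or its relative NPAS2, bind E-box sequences and switch on the Period and Cryptochrome genes, whose proteins enter the nucleus as a complex and inhibit those same activators. CIART, also known as CHRONO, and the paired repressors DEC1 and DEC2 (genes Bhlhe40 and Bhlhe41) are E-box targets that also act against the activators. Per1 and Per2 also respond within the hour to neuronal activity and to glucocorticoids, and in the hippocampus clock genes cycle outside the central pacemaker and have been tied to memory.

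RNA was from male C57BL/6J mice of 12 weeks at the start, housed singly, with 10 libraries in each of 7 groups. Home cage mice had neither a wheel nor training. Sedentary mice had no wheel, and the 5 exercise groups are named by days of initial voluntary running, days of sedentary delay and days of reactivating running. The 14-14-0, 14-7-0 and 14-0-0 mice ran for 14 days and then rested for 14, 7 or 0 days, 14-7-2 mice had 2 more days of running after 7 days of rest, and 0-0-2 mice had those 2 days alone. The 6 groups other than home cage had 3 min of object location memory training, too short by design to give lasting memory, and tissue was taken 1 h later, within a 4 h window on each of 2 harvest days, with 5 libraries per group in each cohort. Clock time of each library is not in the labels, and no label ties a library to a cage, so p-values measure the spread between libraries. Because RNA came from whole tissue, fewer cells of a type and less RNA per cell cannot be told apart.

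Markers of hippocampal neurons were measured in every library, at a median of 592 FPKM for Slc17a7 and 24.0 FPKM for the dentate gene Prox1. Several libraries stood apart. Sedentary replicate 6, which is in all 6 comparisons with sedentary, had a summed neuron marker level of 106 FPKM, with the sedentary median at 955 FPKM. Its thalamus markers summed to 194 FPKM (sedentary median 26.3) and its oligodendrocyte markers to 6486 FPKM (sedentary median 2899), both highest in that group. In 14-7-0 replicate 4, 10279 genes were at 0, against 6243 to 7199 in the other libraries. The 7 libraries numbered 9, 1 in each group and all of cohort 2, deviated from their group means together, with a correlation of 0.22 to 0.74 in all 21 pairs. What the number 9 stands for is not in the labels. Where leaving these libraries out changed a call or moved a called value or a median by over 1.5 times, the value without them is given. Choroid plexus markers, from tissue next to the hippocampus, had a median sum of 2281 FPKM in 14-0-0 and 2102 FPKM in 14-14-0, against 83.1 to 125 FPKM in the other groups.

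Per1 encodes the Period protein that responds fastest to stimulation (chr11:69095217-69109960, plus strand, mm10). Its level ran from 10.8 to 22.6 FPKM in sedentary mice (median 15.8), from 7.99 to 17.6 in home cage mice (median 11.0) and from 7.27 to 17.6 in 0-0-2 (median 13.3). The ranges were 8.92 to 15.0 FPKM in 14-0-0, 7.20 to 15.1 in 14-7-2 (median 13.1), 8.53 to 16.1 in 14-7-0 (median 14.5) and 10.3 to 17.2 in 14-14-0 (median 13.5). All groups overlapped, but 10 of 10 libraries of 14-0-0 and of 14-7-2 lay below the sedentary median, and 6 sedentary libraries exceeded every 14-0-0 library. The library numbered 9 was the lowest for Per1 in 6 of 7 groups and the lowest of its cohort in all 7, at 7.20 to 10.8 FPKM. By mean, sedentary at 16.4 ± 4.41 FPKM (SD, n = 10) was highest and 14-0-0 at 11.8 ± 2.19 lowest, and no step between neighbouring groups exceeded the pooled SD of 3.03 FPKM.

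Per2 is the Period gene whose loss disrupts behavioural rhythms most clearly (chr1:91415982-91459324, minus strand). Of its 7 groups, 14-0-0 was the narrowest, at 4.59 to 6.15 FPKM with a median of 5.51. Sedentary libraries ran from 5.70 to 10.7 FPKM (median 7.18), so 9 of 10 exceeded the highest 14-0-0 library and 8 of 10 of the 14-0-0 libraries lay below the lowest sedentary one. The other groups lay between: 3.80 to 8.46 FPKM in home cage mice (median 5.58), 4.33 to 7.25 in 0-0-2 (median 6.48), 5.03 to 7.50 in 14-7-2 (median 6.31), 4.61 to 7.43 in 14-7-0 (median 6.68) and 5.04 to 7.66 in 14-14-0 (median 6.64). All 6 overlapped the sedentary range. The step from sedentary, at 7.57 ± 1.46 FPKM, to the next group mean, 6.52 ± 0.83 in 14-14-0, was the only step in the 8 orders that exceeded its pooled SD, here 1.03 FPKM.

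Per3, the Period gene that the core rhythm can do without (chr4:151003652-151044665, minus strand), is shown with the D-box, the site of the output factors DBP, TEF and HLF and of their antagonist NFIL3. The D-box was searched as TTATGTAA on both strands in the 250 bases before the start (RefSeq, GRCm38.p6, of which mm10 is the same sequence), and 269 of 32851 such windows, 0.819%, held it. Of the 6 members with a window in the table used, only Per3 held these letters. Other spellings, such as the TTATGCAA in the Per1 sequence printed below, were not searched. Per3 was 1 of 6 windows among all with 2 or more copies, at 205 and 158 bases before the start. The sequence, chr4:151044666-151044915 on the minus strand, is shown for these copies, with the D-boxes in capitals.
Per3: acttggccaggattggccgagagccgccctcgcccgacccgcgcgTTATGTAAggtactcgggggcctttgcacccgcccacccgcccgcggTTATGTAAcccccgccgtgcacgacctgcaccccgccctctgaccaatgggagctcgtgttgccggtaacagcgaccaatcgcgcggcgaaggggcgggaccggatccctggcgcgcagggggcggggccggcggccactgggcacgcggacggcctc
A match of letters is a description and not a site shown to be used. Per3 ran from 4.06 to 9.15 FPKM in sedentary mice (median 5.65), 4.65 to 6.71 in home cage mice (median 5.58), 3.45 to 6.52 in 0-0-2 (median 4.68) and 3.28 to 7.18 in 14-0-0 (median 4.47). It ran from 4.12 to 9.86 FPKM in 14-7-2 (median 4.87), 4.70 to 7.45 in 14-7-0 (median 5.47) and 4.48 to 7.85 in 14-14-0 (median 5.62). The 3 groups with the lowest medians were those with a wheel within 2 days of training, and all ranges overlapped.

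Cry1 and Cry2 encode the Cryptochromes, the direct inhibitors of the CLOCK and BMAL1 pair. Cry1 (chr10:85131700-85185064, minus strand) had group means from 5.11 ± 0.80 FPKM in 14-7-2 to 6.31 ± 1.41 in sedentary (SD, n = 10). Its highest library, at 9.79 FPKM, was sedentary replicate 6. Cry2 (chr2:92403646-92434043, minus strand) was the steadiest member, with group means from 32.2 ± 2.59 FPKM in 14-0-0 to 34.6 ± 2.94 in sedentary and a within-group coefficient of variation of 8.13%, against 13.7% to 22.8% in the other members. For neither Cryptochrome did neighbouring groups differ beyond their spread.

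Ciart (chr3:95878503-95882251, minus strand) is shown with the E-box, CACGTG, a palindrome that reads the same on both strands. Of the 32851 windows, 1978 or 6.02% held an E-box, and only 20 held 3 or more. Ciart was 1 of the 20, with copies at 116, 58 and 44 bases before the start (chr3:95882229-95882478, minus strand). Per1 held 1, at 166 bases before the first of its 2 listed starts (chr11:69098699-69098948, plus strand). Both sequences are printed, E-boxes in capitals, because Ciart had the widest span between groups and Per1 the widest spread within them.
Ciart: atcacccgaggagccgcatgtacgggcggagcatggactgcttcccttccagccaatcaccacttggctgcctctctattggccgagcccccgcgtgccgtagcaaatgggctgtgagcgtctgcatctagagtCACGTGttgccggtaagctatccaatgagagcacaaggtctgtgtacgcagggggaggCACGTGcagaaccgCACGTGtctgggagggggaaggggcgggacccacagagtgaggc
Per1: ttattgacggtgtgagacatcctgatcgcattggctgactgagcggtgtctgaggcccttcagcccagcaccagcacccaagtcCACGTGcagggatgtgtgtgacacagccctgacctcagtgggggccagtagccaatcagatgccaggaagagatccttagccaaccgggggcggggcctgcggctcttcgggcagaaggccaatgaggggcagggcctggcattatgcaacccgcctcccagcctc
Cry1 held 1 E-box at 60 bases and Bhlhe41 1 at 153 bases before the start, Cry2 and Per3 held none, and the table used has no entry for Per2 or Bhlhe40. The variant CACGTT, on either strand, stood at 79 bases in Cry1 and at 166 bases in Cry2, and 3.85% of windows held it.

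Ciart had the widest relative span of group means among the members, from 3.19 ± 0.96 FPKM in 14-0-0 to 5.19 ± 1.18 in sedentary (SD, n = 10), a ratio of 1.63. Sedentary libraries ran from 3.78 to 7.60 FPKM (median 4.96), home cage from 2.76 to 4.73 (median 3.62), 0-0-2 from 2.09 to 5.42 (median 3.69) and 14-0-0 from 2.20 to 5.18 (median 3.02). In 14-7-2 they ran from 2.97 to 5.10 FPKM (median 3.74), in 14-7-0 from 3.18 to 6.55 (median 4.51) and in 14-14-0 from 3.05 to 5.69 (median 4.53). The home cage group and the 3 groups with a wheel within 2 days of training had medians of 3.02 to 3.74 FPKM, the sedentary group and the 2 rested groups had medians of 4.51 to 4.96 FPKM, and all ranges overlapped.

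Bhlhe40 (chr6:108660629-108666925, plus strand), which is also induced by activity and low oxygen, was the most abundant member by FPKM, a scale per transcript length, with a mean of 39.4 FPKM. Its median was 42.5 FPKM in sedentary mice (range 23.1 to 58.3), 41.4 in home cage mice (24.5 to 52.4), 38.1 in 0-0-2 (31.4 to 46.9) and 36.5 in 14-0-0 (27.4 to 40.8). It was 34.6 FPKM in 14-7-2 (28.7 to 40.8), 42.1 in 14-7-0 (33.2 to 57.1) and 40.2 in 14-14-0 (23.8 to 54.5). The 14-7-2 and 14-0-0 groups were low and narrow, inside the range of the sedentary group. The low end of that range, 23.1 FPKM, was sedentary replicate 6, the library low in neuron markers. Both groups reached below all other sedentary libraries. Bhlhe41 (chr6:145858243-145865558, minus strand), its partner repressor, varied little between groups, with means from 6.70 ± 0.58 FPKM in 0-0-2 to 7.43 ± 1.50 in 14-7-0. In the GENCODE annotation 855 of the 6262 exon bases of Bhlhe41 also lie in the antisense gene Gm43909, and counting by strand is not stated.

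**Figure D1:**
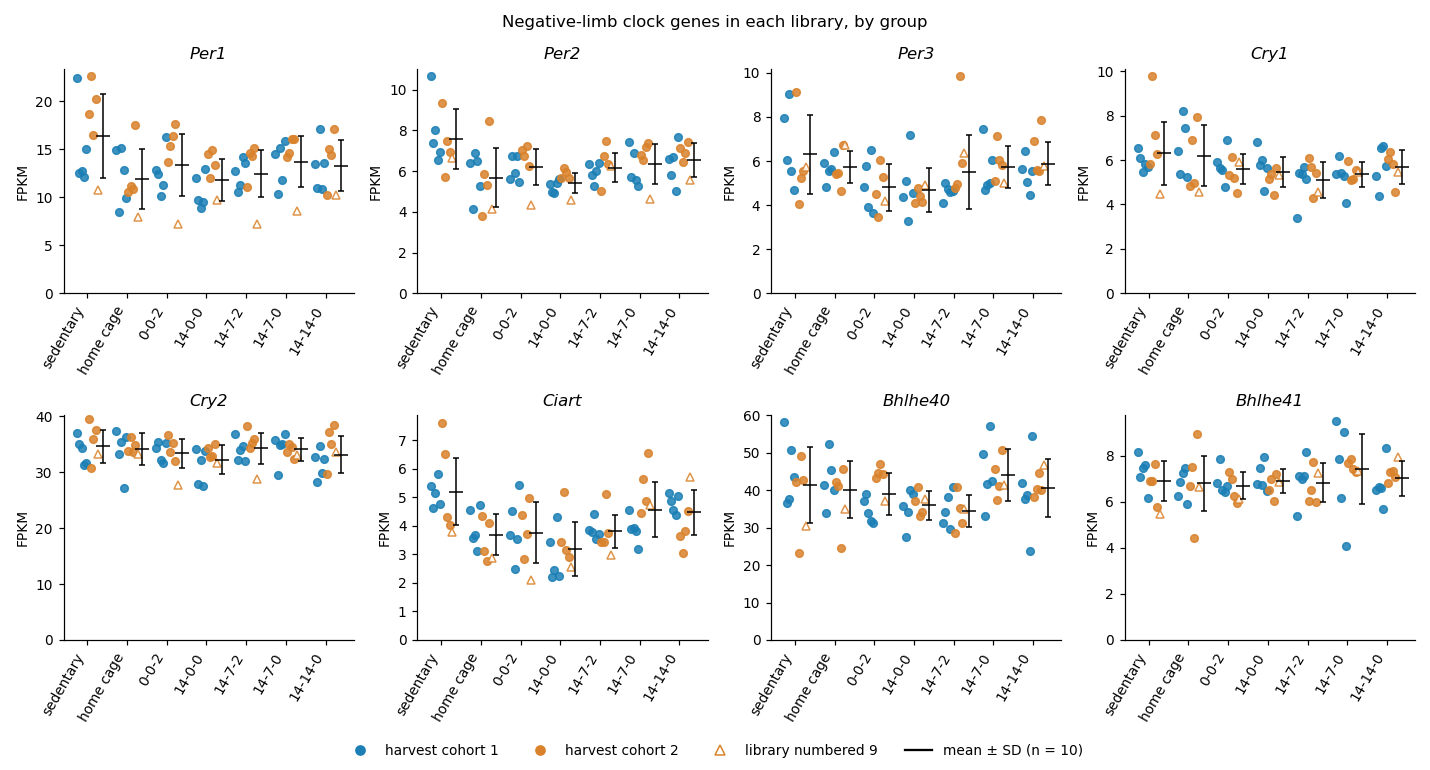
Level of each member in FPKM (linear axis from 0) in the 10 libraries of each of the 7 groups, with bars for the mean ± SD. Blue and orange mark the harvest cohorts and open triangles the libraries numbered 9. Per1, Per2 and Ciart had their highest mean in the sedentary group, and the triangles were lowest for Per1 in 6 of 7 groups.

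Against the sedentary group, which serves all 6 comparisons, 7 of 8 members had a lower mean log2 level in 14-0-0, with a median difference of -0.29 on the log2(FPKM + 0.1) scale. The 14-7-2 and 0-0-2 groups had -0.25 and -0.21, the rested 14-7-0 and 14-14-0 groups -0.14 and -0.10, and home cage mice -0.07. The home cage value was -0.10 without the libraries numbered 9. Without sedentary replicate 6 it was -0.14, level with 14-7-0 at -0.14, and 14-14-0 stood at -0.11, so these 3 groups had no fixed order. In cohort 2 alone the value was -0.03 in 14-7-0 and -0.13 in 14-7-2. The median over all tested genes lay between -0.01 and 0.01 in these comparisons.

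Ciart was lower by -0.71 ± 0.15 (log2 difference ± SE) in 14-0-0, -0.48 ± 0.16 in 0-0-2, -0.48 ± 0.13 in home cage mice and -0.42 ± 0.12 in 14-7-2. In the rested groups its difference was -0.18 ± 0.13 in 14-7-0 and -0.20 ± 0.12 in 14-14-0. Per2 differed by -0.45 ± 0.09 in 14-0-0, -0.43 ± 0.14 in home cage mice, -0.28 ± 0.10 in 14-7-2, -0.27 ± 0.11 in 0-0-2, -0.24 ± 0.11 in 14-7-0 and -0.20 ± 0.10 in 14-14-0. Thus the Ciart and Per2 means were below sedentary in every group. Per1 differed by -0.45 ± 0.14 in 14-0-0 and -0.45 ± 0.16 in home cage mice, and by -0.23 ± 0.15 to -0.37 ± 0.15 in the other 4 groups. Home cage mice had not run or been trained, so for these 3 genes the sedentary group stood above both the exercised and the untrained mice. Per3 differed by -0.40 ± 0.15 in 14-0-0 and -0.36 ± 0.15 in 0-0-2 and by -0.07 ± 0.14 to -0.19 ± 0.16 elsewhere. Cry1 lay between -0.03 ± 0.13 in home cage mice and -0.29 ± 0.12 in 14-7-2, and Cry2 between -0.02 ± 0.06 and -0.10 ± 0.06. Bhlhe40 ranged from -0.23 ± 0.13 in 14-7-2 to 0.11 ± 0.13 in 14-7-0, and Bhlhe41 from -0.04 ± 0.07 in 0-0-2 to 0.08 ± 0.12 in 14-7-0.

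At the study's threshold, p under 0.05 without adjustment, but with limma in place of its Cyber-T test, the count of members was 4 of 8 in 14-0-0 beside 9.15% of all genes tested, 4 in 14-7-2 beside 4.39%, and 3 in 0-0-2 beside 2.37%. It was 3 in home cage mice beside 2.30%, 1 in 14-7-0 beside 3.26% and 0 in 14-14-0 beside 4.95%. With a Cyber-T test on FPKM the count was 4 in 14-0-0 beside 800 of 12994 genes, and 5 in 14-7-2 beside 372. It was 4 in 0-0-2 beside 191, 3 in home cage mice beside 287, 0 in 14-7-0 beside 257 and 1 in 14-14-0 beside 545. Nothing is read from these counts, since these comparisons chose the family. No gene of any kind passed an adjusted p under 0.05 in the 6 comparisons (limma, Benjamini-Hochberg). In 14-7-0 the 1 member, Per2, was lost without 14-7-0 replicate 4 (-0.22), and in 14-14-0 Per2 was gained without sedentary replicate 6 (-0.24). Without that sedentary library, Bhlhe40 (-0.26) and Cry2 (-0.12) were gained in 14-0-0, and Bhlhe40 (-0.32) in 14-7-2. Without the libraries numbered 9, Cry1 was gained in 14-0-0 (-0.23) and in 14-7-0 (-0.27). Per2 was then lost in 14-7-0 (-0.21) and Ciart gained in 14-14-0 (-0.29). Nothing is read from these changes either. Activity-induced genes moved in the same comparisons. At an unadjusted p under 0.05, 7 of 11 were lower in both 14-0-0 and 14-7-2, 5 in 14-14-0, 4 in 14-7-0 and 3 in 0-0-2. In home cage mice 0 were called lower and 1 higher, though 10 of 11 had a negative difference (median -0.22). In each exercise group 10 or 11 of 11 had a negative difference. Choroid plexus markers were higher in 14-0-0 and 14-14-0 (6 of 6, median log2 difference 2.40 and 2.37) and in home cage mice (3 of 6, median 1.41). Oligodendrocyte markers were lower in 0-0-2 (3 of 5, median -0.51), and in home cage mice 4 of 9 glucocorticoid-responsive genes were lower. Their part in the member values was not tested.

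The activator Arntl, which the repressors act upon, ran the other way, with a log2 difference from sedentary of 0.36 ± 0.09 in 14-0-0, 0.32 ± 0.10 in 0-0-2, 0.29 ± 0.08 in 14-7-2 and 0.24 ± 0.10 in home cage mice. It was 0.18 ± 0.08 in 14-7-0 and -0.01 ± 0.07 in 14-14-0. Dbp, the output factor driven through E-boxes, differed by -0.49 ± 0.12 in 14-0-0, -0.33 ± 0.12 in 0-0-2, -0.32 ± 0.12 in home cage mice, -0.14 ± 0.12 in 14-7-2, -0.04 ± 0.12 in 14-7-0 and 0.07 ± 0.11 in 14-14-0. Of the exons of Dbp, 539 of 1837 bases are shared with the antisense gene Sphk2. The wider lists did not all run one way. Of 6 tested activators, 4 were higher and 2 lower in 14-7-2, and 5 higher and 1 lower in each other group. Of 4 output factors, 4 were lower in 14-7-2 and 0-0-2, and 3 in 14-0-0, 14-7-0 and 14-14-0. In home cage mice 2 of them were lower and 2 higher. Both Rev-erb genes were lower, except for 1 higher in 14-14-0.

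**Figure D2:**
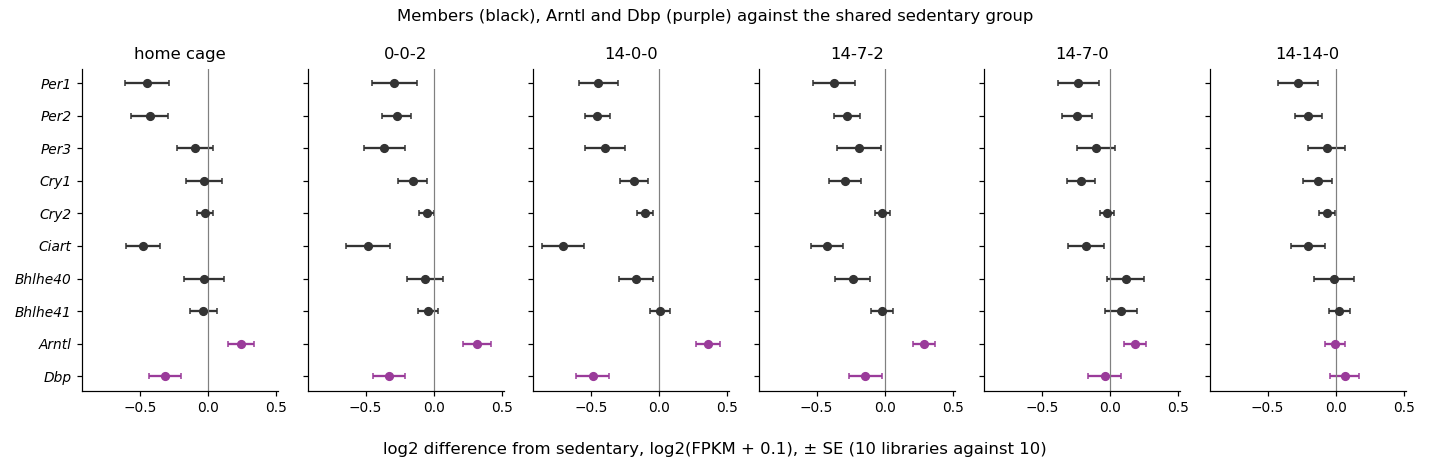
Log2 difference from the sedentary group, on the log2(FPKM + 0.1) scale, for the 8 members (black) and for Arntl and Dbp (purple), 10 libraries against 10, with bars for ± 1 SE. Ciart lay furthest below sedentary in 14-0-0, at -0.71, while Arntl lay above it at 0.36. The 6 panels share the sedentary libraries.

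Whether running near the time of training went with the level of these genes was asked without the sedentary libraries. The 30 libraries of 0-0-2, 14-0-0 and 14-7-2 were set against the 20 libraries of 14-7-0 and 14-14-0, which had rested for 7 or 14 days. In 0-0-2, 14-0-0 and 14-7-2 wheel use ended the night before training, when the paper states that wheels were taken away. The exercise libraries also took part in the comparisons that chose the family, so the differences are given with their SE and no p. Ciart was lower after recent wheel use, at 2.09 to 5.42 FPKM (median 3.54), against 3.05 to 6.55 FPKM (median 4.53) in rested mice. The ranges overlapped over most of their span. The log2 difference was -0.35 ± 0.09.

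All 8 members had a negative difference. At an unadjusted p under 0.05, 4 were called lower (Ciart, Bhlhe40, Per3 and Per2) and none higher, beside 8.90% of all genes tested in either direction, and 0 passed an adjusted p under 0.05, which 0.277% of genes (36 of 12994) passed. Nothing is read from these counts either. Bhlhe40 ran from 27.4 to 46.9 FPKM (median 36.4) after recent wheel use and from 23.8 to 57.1 FPKM (median 41.5) in rested mice, and differed by -0.21 ± 0.06. Per3, at a median of 4.75 against 5.62 FPKM, differed by -0.23 ± 0.08. Per2, at a median of 5.94 against 6.64 FPKM, differed by -0.11 ± 0.05. The difference was -0.11 ± 0.09 in Per1, -0.04 ± 0.06 in Cry1, -0.01 ± 0.03 in Cry2 and -0.07 ± 0.06 in Bhlhe41. Bhlhe41 was at -0.12 without 14-7-0 replicate 4, the library with 10279 genes at 0, and was then called too. With the replicate number as a block, Per1 was called as well and the count was 5, beside 1429 of 12994 genes.

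Within the harvest cohorts, Ciart differed by -0.30 in cohort 1 and -0.39 in cohort 2, Bhlhe40 by -0.24 and -0.17, Per3 by -0.21 and -0.26, and Per2 by -0.11 and -0.11. These 4 had the same direction in both cohorts, but they were picked by their difference over both cohorts together, so the likeness is a description only. Bhlhe41 differed by 0.02 in cohort 1 and -0.16 in cohort 2. Without the libraries numbered 9, Ciart differed by -0.27.

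Clock genes other than the members, whose earlier values were also known, are described in the same way. Arntl was higher after recent wheel use by 0.23 ± 0.05, at 9.64 to 18.3 FPKM (median 15.3) against 10.4 to 16.6 FPKM (median 12.4). Dbp was lower by -0.33 ± 0.07, at 8.09 to 18.1 FPKM (median 11.4) against 10.7 to 18.4 FPKM (median 15.1). Their groups overlapped in range. Among the Rev-erb genes, nuclear receptors that repress Arntl, Nr1d2 differed by -0.23 ± 0.06 and Nr1d1 by -0.06 ± 0.13. At an unadjusted p under 0.05, 3 of 4 output factors were lower (Dbp, Hlf and Tef) and 1 higher (Nfil3, the repressor at the D-box), while of 6 tested activators Arntl was higher and Rorb lower. None of 22 tested regulators of PER and CRY proteins, such as kinases and ubiquitin ligases, passed.

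Markers of oligodendrocytes moved with this contrast, all 5 lower at an unadjusted p under 0.05 (log2 differences -0.24 to -0.34). Their summed level was 1227 to 3443 FPKM (median 2294) after recent wheel use against 1381 to 4114 FPKM (median 2865) in rested mice. Of 5 endothelial markers 2 were lower, of 7 neuron markers 1 was higher and of 11 activity-induced genes 1 was lower. Their part in the clock gene differences was not tested.

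**Figure D3:**
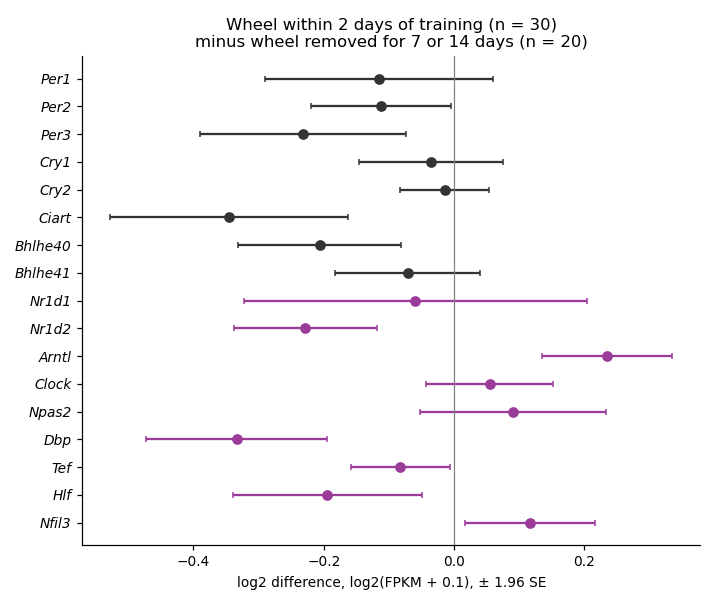
Log2 difference, on the log2(FPKM + 0.1) scale, between 30 libraries with a wheel within 2 days of training and 20 rested libraries, for the 8 members (black) and 9 other clock genes (purple), with bars for ± 1.96 SE. All 8 members lay below 0, Ciart furthest at -0.35, and Arntl lay above 0 at 0.23.

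The closest matched pair of groups, 14-7-2 and 14-7-0, differed by design in the 2 reactivating days of running. Distance run before the rest was not matched here. Bhlhe40 had the difference of greatest size among the members, with 28.7 to 40.8 FPKM in 14-7-2 against 33.2 to 57.1 FPKM in 14-7-0, a log2 difference of -0.35 ± 0.09. Its direction and size were alike in the cohorts, -0.35 in cohort 1 and -0.34 in cohort 2, and it was -0.36 without the libraries numbered 9. Bhlhe40 was picked by its size over both cohorts, so this is a description only. Ciart differed by -0.24 ± 0.11, but this rested on cohort 2, at -0.49, with 0.00086 in cohort 1. These 2 of 8 members were called at an unadjusted p under 0.05, beside 5.39% of all genes, and no gene passed the adjusted test. Ciart was no longer called with the replicate number as a block or without the libraries numbered 9 (-0.20), and Bhlhe41, at -0.10, was called at -0.19 without 14-7-0 replicate 4. Oligodendrocyte markers had negative differences in 5 of 5 (median -0.32), of which 1, Mobp, was called, and 1 neuron, 1 astrocyte and 1 endothelial marker and 2 of 11 activity-induced genes were called lower. Their part in the Bhlhe40 and Ciart differences was not tested.

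Between the 2 harvest days, no member passed the adjusted test over all 70 libraries (limma, group as a term), beside 0.585% of genes. None passed at an unadjusted p under 0.05 either, beside 11.9%. The log2 differences of cohort 2 from cohort 1 lay between -0.02 for Cry1 and 0.08 for Per1, with an SE of at most 0.08. Per1 was at 8.45 to 22.4 FPKM (median 12.7) in cohort 1 and 7.20 to 22.6 FPKM (median 14.4) in cohort 2. Without the 7 libraries numbered 9, Per1 was higher in cohort 2 by 0.23 (limma, p = 0.00079, adjusted p = 0.018). It was the 1 member to pass, beside 1465 of 12994 genes. The libraries left out, all of cohort 2, were the lowest of their cohort for Per1 in all 7 groups. Leaving them out thus raises cohort 2 in Per1 by construction, and nothing is read from this call. In tests of whether each difference from sedentary changed with the cohort, 0 of 48 passed an adjusted p under 0.05 and 1 passed unadjusted, Bhlhe40 in 0-0-2.

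How the members varied together was measured on what remained after removing the mean of each of the 14 group and cohort cells. Over 70 libraries and 76 relations (28 pairs of members and each member with Arntl, Npas2, Dbp, Nr1d1, Fos and Fkbp5), 23 passed an adjusted p under 0.05 for Pearson's r, of which 16 also did for Spearman's rho (permutation within cells, two-sided, Benjamini-Hochberg over 76). Without the libraries numbered 9 the number was 13, all among the 23. The permutation took libraries as independent across groups, but those sharing a number could deviate together. Correlations were above 0.1 in 21 of 21 pairs for number 9 and in 16 for number 8. The p-values of these relations may thus be too small. An r of at least 0.28 in size, the smallest that passed, was reached by 14.1% of the 12986 tested genes that are not members for Ciart and by up to 55.9% for Per1, so the counts are not particular to these genes. Genes of the same library can share effects such as depth or base composition, whose part was not tested. These values therefore describe libraries.

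Per1 went with Nr1d1, the Rev-erb alpha gene, at r = 0.88 and rho = 0.85 (permutation, adjusted p = 0.00019 for both, the smallest that 100000 resamples can give here). Leaving out the 2 libraries farthest in Per1 gave r = 0.85, cohort 1 gave 0.77, cohort 2 gave 0.94, and leaving out the libraries numbered 9 and taking means again gave 0.76. Those 7 libraries held 15.0 to 26.8 FPKM of Nr1d1, against 22.7 to 63.1 FPKM in the other libraries. By size of rho, Nr1d1 ranked 72 among 12986 other tested genes for Per1. Nr1d1 shares 263 exon bases with Thra on the opposite strand.

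With Fos, a gene induced by neuronal activity, Per1 had r = 0.69 and rho = 0.69 (permutation, adjusted p = 0.00019), with 0.70 without the 2 farthest libraries, 0.84 in cohort 1, 0.61 in cohort 2 and 0.73 without the libraries numbered 9. Fos ranked 1050 among the 12986 genes for Per1, so 8.09% of genes followed Per1 at least as closely. Npas2 gave r = 0.72 and rho = 0.74 with Per1 (permutation, adjusted p = 0.00019), and 0.63 without the libraries numbered 9. Per1 and Per2 had r = 0.63 and rho = 0.55 (permutation, adjusted p = 0.00030 and 0.00053), with 0.62 without the 2 farthest libraries and 0.64 and 0.63 in the cohorts. Per1 and Cry2 had r = 0.53, which became 0.38 without the libraries numbered 9 and then missed the threshold (permutation, adjusted p = 0.068).

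Ciart followed Dbp, at r = 0.60 and rho = 0.56 (permutation, adjusted p = 0.00019), with r = 0.45 in cohort 1 and 0.70 in cohort 2, 0.58 without the 2 farthest libraries and 0.62 without the libraries numbered 9. Dbp ranked 11 among 12986 genes for Ciart. Ciart went against Arntl at r = -0.41 (permutation, adjusted p = 0.024), where rho = -0.33 missed the threshold (adjusted p = 0.057).

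Bhlhe40 and Bhlhe41 varied together, at r = 0.48 and rho = 0.50 (permutation, adjusted p = 0.0051 and 0.0021), with 0.44 and 0.55 in the cohorts and 0.52 without the 2 farthest libraries. Per3 and Cry1 were the only pair of members opposed at the threshold, at r = -0.41 and rho = -0.42 (permutation, adjusted p = 0.0078 and 0.0060), with -0.38 without the 2 farthest libraries and -0.34 and -0.48 in the cohorts. Cry1 instead followed Fos, at r = 0.48 and rho = 0.46 (permutation, adjusted p = 0.0030 and 0.0052), with 0.47 without the 2 farthest libraries and 0.57 and 0.38 in the cohorts. Among the 28 pairs of members 24 had a positive r, and 11 passed the threshold, to be read beside those shares of all genes.

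**Figure D4:**
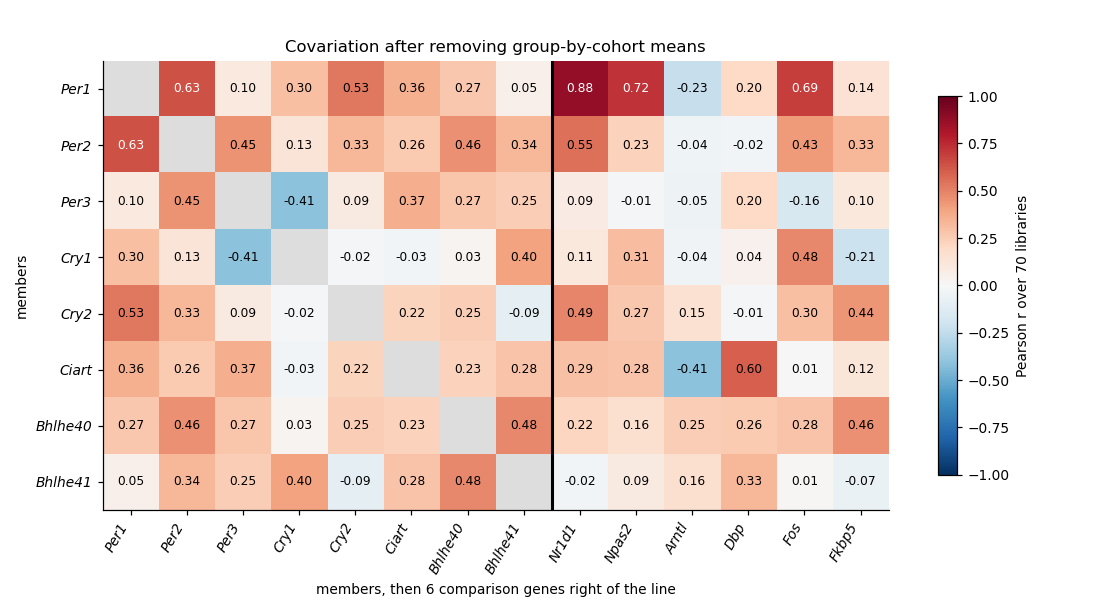
Pearson's r over 70 libraries between each member (rows) and the 8 members and 6 comparison genes (columns), after removing group and cohort means. Red is positive and blue negative, and grey marks a gene with itself. Per1 with Nr1d1 was highest at 0.88, Ciart with Dbp stood at 0.60, and Per3 with Cry1 at -0.41.

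**Figure D5:**
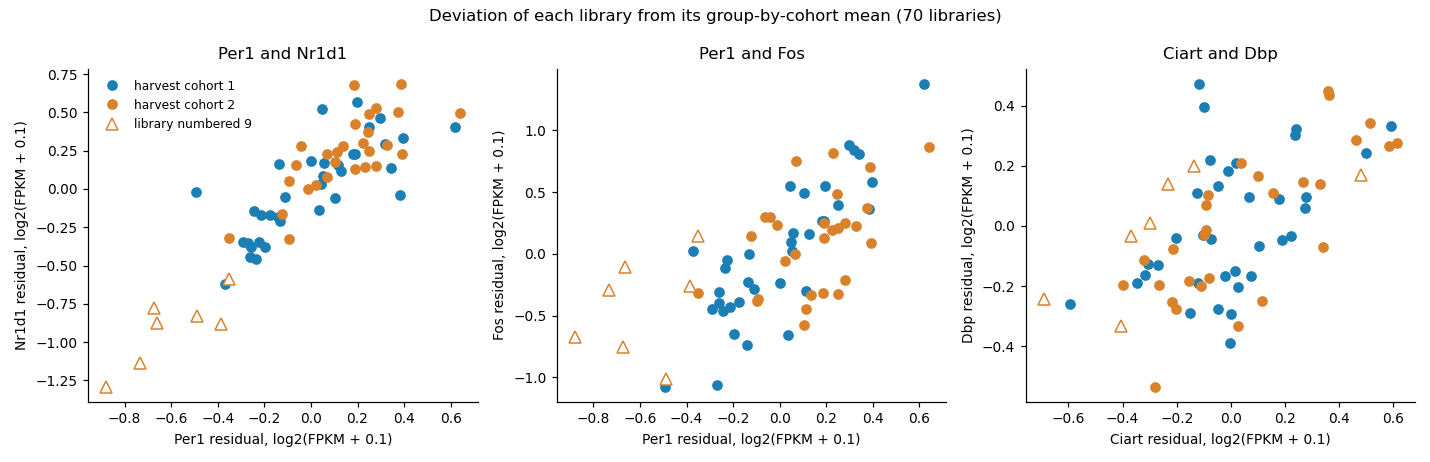
Deviation of each of 70 libraries from its group and cohort mean, in log2(FPKM + 0.1), for Per1 against Nr1d1, Per1 against Fos and Ciart against Dbp. Open triangles, the libraries numbered 9, sat at the low end of Per1 and of Nr1d1, where r was 0.88, and were spread along Ciart.

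The genes closest to each member over these 70 libraries, by rho among tested genes that are not members, were mostly outside the clock. For Per1 they were Ccdc85c (0.90), Prr12 (0.89) and Atn1 (0.89), and the most opposed were Copg2 (-0.79), Elp2 (-0.79) and Pdk3 (-0.78). For Per2 they were Arhgef7 (0.78), Mcf2l (0.78) and Sh3bp1 (0.73), opposed by Ppp2r2d (-0.70), Grb14 (-0.68) and BC004004 (-0.67). For Per3 they were Serac1 (0.79), Adam8 (0.78) and Slc39a2 (0.77), opposed by Lamp1 (-0.66), Slain1 (-0.65) and Bpgm (-0.65). Many genes thus followed a Period gene as closely as any clock partner did.

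Cry1 was nearest to Apln (0.78), S1pr1 (0.67) and Elovl5 (0.66), and was opposed by A730017L22Rik (-0.64), 2900005J15Rik (-0.64) and Unc13b (-0.63). Cry2 was nearest to Ncan (0.81), Adgrl1 (0.79) and Dcaf5 (0.79), and was opposed by Cetn4 (-0.77), Ggh (-0.76) and Hadhb (-0.76). For Ciart the values were lower, with Plxna3 (0.60), Map2k7 (0.58) and Ltk (0.58) nearest and Idi1 (-0.58), Ngly1 (-0.56) and Eif1ax (-0.56) opposed. Bhlhe40 was nearest to a clock gene, the output factor Hlf (0.77), followed by Prss12 (0.77) and St3gal1 (0.76), with Rerg (-0.70), Fstl5 (-0.70) and Slit2 (-0.69) opposed. Bhlhe41 was nearest to Mfap3 (0.58), Zfp68 (0.57) and Cdk17 (0.56), and was opposed by Tmem215 (-0.59), Ly6e (-0.59) and Lrrc8d (-0.55).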

How the data were processed

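Poly-A RNA of the dorsal hippocampus was sequenced as 50-base single reads in 70 libraries. The authors mapped reads to mm10 with ELAND v2e and Bowtie and deposited FPKM values per gene, and the submitters' processing notes also name Cuffnorm. The normalization setting of Cuffnorm is not given in the sources used here. FPKM are not counts, so no interval from counts is given. Read numbers listed by the study are named by lane and barcode, which the labels do not tie to libraries, and were not used here. Groups and replicate numbers are from the labels, and the cohorts from the numbers 0 to 4 and 5 to 9 in the titles.

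From these values, log2(FPKM + 0.1) was tested with limma 3.58.1 (R 4.3.3, moderated test with trend) over 12994 genes whose mean reached 1 FPKM, with Benjamini-Hochberg adjustment over all of them, and only the rows of the members and the clock genes were printed. Comparisons with sedentary and among the exercise groups, planned as tests, are given without p-values for the members because their libraries took part in choosing them. A call is an unadjusted p under 0.05, except an adjusted one for the cohorts. Levels are FPKM. Covariation was computed in Python 3.11.15 with numpy 2.4.6, on log2 values after removing group and cohort means, with 100000 permutations within cells. Scripts were tested on simulated data. Genes named are the 8 members, the tested clock activators, Rev-erb genes and output factors, others past the test in the lists fixed, and the 3 nearest and 3 most opposed genes for each member. The members and lists were chosen with earlier results of these data known. Promoter sequences are from RefSeq (GRCm38.p6), with 6 of 8 members matched, and positions from GENCODE M21.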

Additional observations from a re-analysis of the deposited data

Results flagged for a closer look

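In 56 sets of 10 libraries, each member in each group, 5 had a highest or lowest library set apart from the rest by a gap past the critical value of Dixon's test, where chance gives about 1 in 20 sets, 2.8 of 56. Per3 reached 9.86 FPKM in 14-7-2 replicate 7, with the other libraries of that group at 4.12 to 6.36 FPKM, and 7.18 FPKM in 14-0-0 replicate 3, with the others at 3.28 to 5.10 FPKM. Cry1 was at 9.79 FPKM in sedentary replicate 6, the library low in neuron markers, with the others at 4.46 to 7.14 FPKM. Cry1 was at 4.05 FPKM in 14-7-0 replicate 4, the library with many genes at 0, with the others at 5.09 to 6.19 FPKM. Cry2 was at 27.3 FPKM in home cage replicate 3, with the others at 33.2 to 37.4 FPKM, and choroid plexus markers summed to 15497 FPKM in that library. What sets these libraries apart was not tested.

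The difference of 0-0-2 from sedentary in Bhlhe40 ran in opposite directions in the harvest cohorts. This was the 1 of 48 such tests past an unadjusted p under 0.05, beside 1.48% of all genes in 0-0-2. On the log2(FPKM + 0.1) scale, all 5 libraries of 0-0-2 in cohort 1 lay below the sedentary mean of that cohort and all 5 in cohort 2 above it, though in FPKM 1 of these, replicate 9 at 37.0 FPKM, lay below the mean of its cohort. The log2 differences were -0.37 and 0.25, and cohort 2 differed from cohort 1 by 0.62 (limma, interaction, p = 0.018, adjusted p = 1).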

How the results depend on the processing

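The median difference of the 8 members from sedentary stayed negative in every alternative, but moved by over 1.5 times in these. In home cage mice it went from -0.07 to -0.14 without sedentary replicate 6, -0.15 and -0.11 in cohorts 1 and 2 alone, -0.10 without the libraries numbered 9 and -0.04 with a minimum mean of 5 FPKM. That minimum, which leaves fewer members, also gave -0.18 in 14-0-0 and -0.07 in 14-14-0. Cohort 2 alone gave -0.03 in 14-7-0, -0.06 in 14-14-0 and -0.13 in 14-7-2. The count of members called stayed within 1.5 times except as given here. In what follows, brackets after a count give the number of all genes called, of 12994 unless another number is given. In 14-7-0 against sedentary the count, 1 in the report, was 2 with all 7 groups fitted jointly (896). It was 2 in cohort 1 alone (222), and 0 in cohort 2 alone (177) or with the Cyber-T test on FPKM (257). In cohort 2 alone it was 2 for 14-0-0 (611), 0 for 14-7-2 (549) and 0 for 0-0-2 (354). In 14-14-0 it was 1 with Cyber-T (545), and 1 without the libraries numbered 9 (739), an alternative chosen after seeing the data. Leaving out sedentary replicate 6 gave 1 in 14-7-0 (428) and 1 in 14-14-0 (906). Leaving out 14-7-0 replicate 4 gave 0 in 14-7-0 (484). For 14-7-2 against 14-7-0 the count, 2 in the report, was 1 with a minimum mean of 5 FPKM (523 of 9354). That minimum removes Ciart from the genes tested. The count was also 1 in cohort 1 alone (542) and 1 without the libraries numbered 9 (1001). For recent wheel use against rest it was 2 in cohort 1 alone (901). Between cohorts it was 1 without the libraries numbered 9 (1465), and the relations that passed then numbered 13. The cause of the other shifts was not tested. Ciart in 14-7-2 against 14-7-0 turned from -0.24 to 0.00086 in cohort 1 alone.

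Groups share replicate numbers, which were not taken to mark pairs by the rule applied, as 24 of 60 pairs with sedentary correlated above 0.1. Same-numbered libraries were still not fully independent. Of 70 libraries, 30 correlated best with their own number among the 5 of their cohort, where 1 in 5 would by chance. The median correlation within a number was above 0 for every number, from 0.011 for number 7 to 0.39 for number 9. Numbers 9 and 8 stood out, with 21 and 16 of 21 pairs above 0.1, against 5 to 10 for the others. With the replicate number as a block the count of members was 2 in 14-7-0 (659) and 2 in 14-14-0 (915) against sedentary. It was 1 in 14-7-2 against 14-7-0 (831), where Ciart was lost. For recent wheel use against rest it was 5 (1429), where Per1 was gained. The depth of each library was not used here, so how far counting error limits Ciart and the other members of low level is unknown.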
